A study of Mus musculus with 2 samples.

Results

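The 37 genes described here encode the machinery that licenses, starts and carries out DNA replication, together with the nucleotide-supply and chromatin-copying genes that are commonly used to mark S phase. They were taken by symbol from the deposited gene list of 32285 genes, and all 37 were present in both libraries. The cells were CD8 T cells from mesenteric lymph nodes of C57/B6N mice, cultured with Th17-polarising cytokines and antibodies toward interleukin-17 production (Tc17 cells), then given PMA at 100 ng/ml together with ionomycin at 10 μg/ml during 3 h and sequenced with the 10x Genomics 3′ kit, version 3.1. One library came from wild-type mice, and 1 came from mice carrying Nfatc1 f/f and Cd4-Cre, a transgene that drives recombination from the Cd4 promoter and so in T cells at large, not in CD8 T cells alone. The number of mice behind each library, and their age, could not be read from the labels. Because each group is a single library, no test was made, and every interval below is a 95% interval for counting error only, which leaves out the spread between cells, mice and cultures.

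Before S phase, Cdc6 and Cdt1 load the ring of Mcm2 to Mcm7 onto origins; Cdc45 and the GINS complex then turn that ring into an active helicase, and geminin (Gmnn) blocks further loading. Polymerases copy the opened strands on the sliding clamp PCNA, Fen1 and Lig1 join the lagging-strand pieces, and chaperones such as Nasp and Chaf1b place histones on the new DNA. Many of these genes are textbook targets of E2F transcription factors, which are released when cyclin E and its kinase inactivate the retinoblastoma protein. Activated CD8 T cells are known for rapid division, and a culture of them holds cells at all stages of the cell cycle.

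The filters (500 genes or more, 10% mitochondrial UMIs or less) left 1018 cells with the wild-type label and 709 with the deficient label, with medians of 20906 and 21436 unique molecular identifiers (UMIs) per cell. The libraries shared 0 barcodes. Nfatc1 transcripts ran against the labels, at 39.8 CPM (counts per 1000000 gene UMIs of the library) in the library labelled wild type and 136 CPM in the library labelled deficient, so directions are given by label only. A 3′ tag outside the deleted part does not check the deletion. The CD8 T cell markers were detected in at least 65.9% and 67.1% of cells each, and Cd4 in 0.295% and 0.564%. The 4 NK cell markers summed to 1.47 and 1.06 CPM. Among them Eomes was the most detected, in 2.06% and 1.97% of cells, while Ncr1 and Klrb1c were detected in 0 cells of both libraries. Summed B cell markers stood at 3.31 and 1.73 CPM, myeloid markers at 0.613 and 0.615 CPM, dendritic markers at 3.07 and 3.97 CPM and gamma-delta T cell markers at 0.286 and 0.894 CPM. No cell type that should lack the replication genes was present, so a background level from free RNA could not be read for them.

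Promoter sequence was available in RefSeq (GRCm38.p6, 300 bases, 250 before and 50 after the start site) for 30 of the 37 genes. The letters TTTCCCGC, TTTCGCGC, TTTGCCGC and TTTGGCGC, which spell common forms of the E2F site, were searched on both strands, with overlapping matches counted separately. They occurred in the promoters of 13 of the 30 genes (43.3%), against 2.61% of 27025 genes with such a window. The same letters were present for 12 of 37 further replication genes (32.4%) and for 3 of 47 genes of a G2/M list (6.38%). CCAAT, on either strand, occurred in 19 of the 30 (63.3%), in 36 of the 47 G2/M genes (76.6%) and in 41.1% of all genes. A match is a description of the letters and not a measured site. The 4 promoters with at least 2 E2F matches all belong to subunits of the Mcm ring, and they are shown with that of Nasp, which had none and whose UMIs were spread over more cells than those of any other of the 37. These were chosen after the counts were seen. Capitals mark the E2F letters, each sequence reads 5′ to 3′ on the gene's own strand, and the windows are, in the same order, chr1:20820263-20820562 (minus strand), chr8:75109259-75109558 (plus), chr1:128359656-128359955 (minus), chr5:138171834-138172133 (minus) and chr4:116627902-116628201 (minus).
Mcm3: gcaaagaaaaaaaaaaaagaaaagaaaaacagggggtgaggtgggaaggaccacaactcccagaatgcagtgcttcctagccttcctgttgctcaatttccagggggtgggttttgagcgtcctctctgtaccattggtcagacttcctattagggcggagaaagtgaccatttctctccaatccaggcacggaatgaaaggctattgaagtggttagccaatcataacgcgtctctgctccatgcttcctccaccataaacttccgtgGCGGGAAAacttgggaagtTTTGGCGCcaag
Mcm5: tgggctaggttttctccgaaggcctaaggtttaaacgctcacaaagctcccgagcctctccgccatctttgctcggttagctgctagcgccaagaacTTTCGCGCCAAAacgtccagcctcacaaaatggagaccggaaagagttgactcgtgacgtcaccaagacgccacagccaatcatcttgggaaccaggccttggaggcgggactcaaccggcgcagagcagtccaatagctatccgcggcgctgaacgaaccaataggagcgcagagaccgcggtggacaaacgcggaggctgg
Mcm6: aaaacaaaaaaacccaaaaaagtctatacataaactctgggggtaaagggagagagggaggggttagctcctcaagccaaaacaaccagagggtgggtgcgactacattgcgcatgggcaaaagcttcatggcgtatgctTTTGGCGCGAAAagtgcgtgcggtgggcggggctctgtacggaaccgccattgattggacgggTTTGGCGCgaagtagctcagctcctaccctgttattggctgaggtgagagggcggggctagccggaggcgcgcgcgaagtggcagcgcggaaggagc
Mcm7: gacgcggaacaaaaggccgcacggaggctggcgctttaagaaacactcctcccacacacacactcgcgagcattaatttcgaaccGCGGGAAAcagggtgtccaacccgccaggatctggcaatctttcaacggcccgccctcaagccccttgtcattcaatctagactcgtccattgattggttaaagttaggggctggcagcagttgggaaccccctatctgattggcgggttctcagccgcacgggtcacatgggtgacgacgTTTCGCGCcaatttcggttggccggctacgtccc
Nasp: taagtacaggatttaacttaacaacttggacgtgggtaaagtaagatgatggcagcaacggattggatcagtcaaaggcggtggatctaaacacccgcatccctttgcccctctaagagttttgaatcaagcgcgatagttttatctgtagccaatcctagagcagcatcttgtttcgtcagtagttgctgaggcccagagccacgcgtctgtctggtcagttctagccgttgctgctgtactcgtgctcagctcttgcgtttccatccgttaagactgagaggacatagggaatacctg
The Mcm6 window held 3 matches, of which a pair overlap on opposite strands, as do those of Mcm5. Both matches of Mcm3 lie within the 50 bases after the start site.

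Summed over all kept cells, the 37 genes took nearly the same share of transcripts in both libraries. They gave 25994 UMIs, or 1063 CPM (1050 to 1076), in the wild-type-labelled library and 18632 UMIs, or 1041 CPM (1026 to 1056), in the deficient-labelled library. The ratio of deficient-labelled to wild-type-labelled was 0.979 (0.961 to 0.998), and it turned to 1.04 when 7 cytokine and chemokine genes were left out of the library totals, so no direction is claimed for the sum. When every cell was weighted equally, the mean per-cell CPM was 788 and 760. Gene by gene, the median log2 ratio was -0.08, against 0.03 over the 5584 genes that reached 20 CPM in 1 library. Of the 37, 14 were higher and 23 lower in the deficient-labelled library (45.3% of all genes at 20 CPM were lower), and 5 of these (Mcm3, Mcm6, Ccne1, Fen1 and Dtl) changed side with the smaller totals. The number that was lower moved with the cells used: it was 29 with equal weight per cell, 32 without cells above the 95th percentile of UMIs, 28 in cells of under 20 G2/M UMIs at 5000 and 9 without Ifng-positive cells. Of the 18 that reached 20 CPM, 0 differed at least 1.5-fold, against 11.7% of all genes at that level (6.02% higher, 5.64% lower). Below that level only Ccne2 passed 1.5-fold, against 13.3% of the 9236 genes that reached 4 CPM. Those 9236 include the genes at 20 CPM, so the share is not that of the band below 20 CPM alone.

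**Figure D1:**
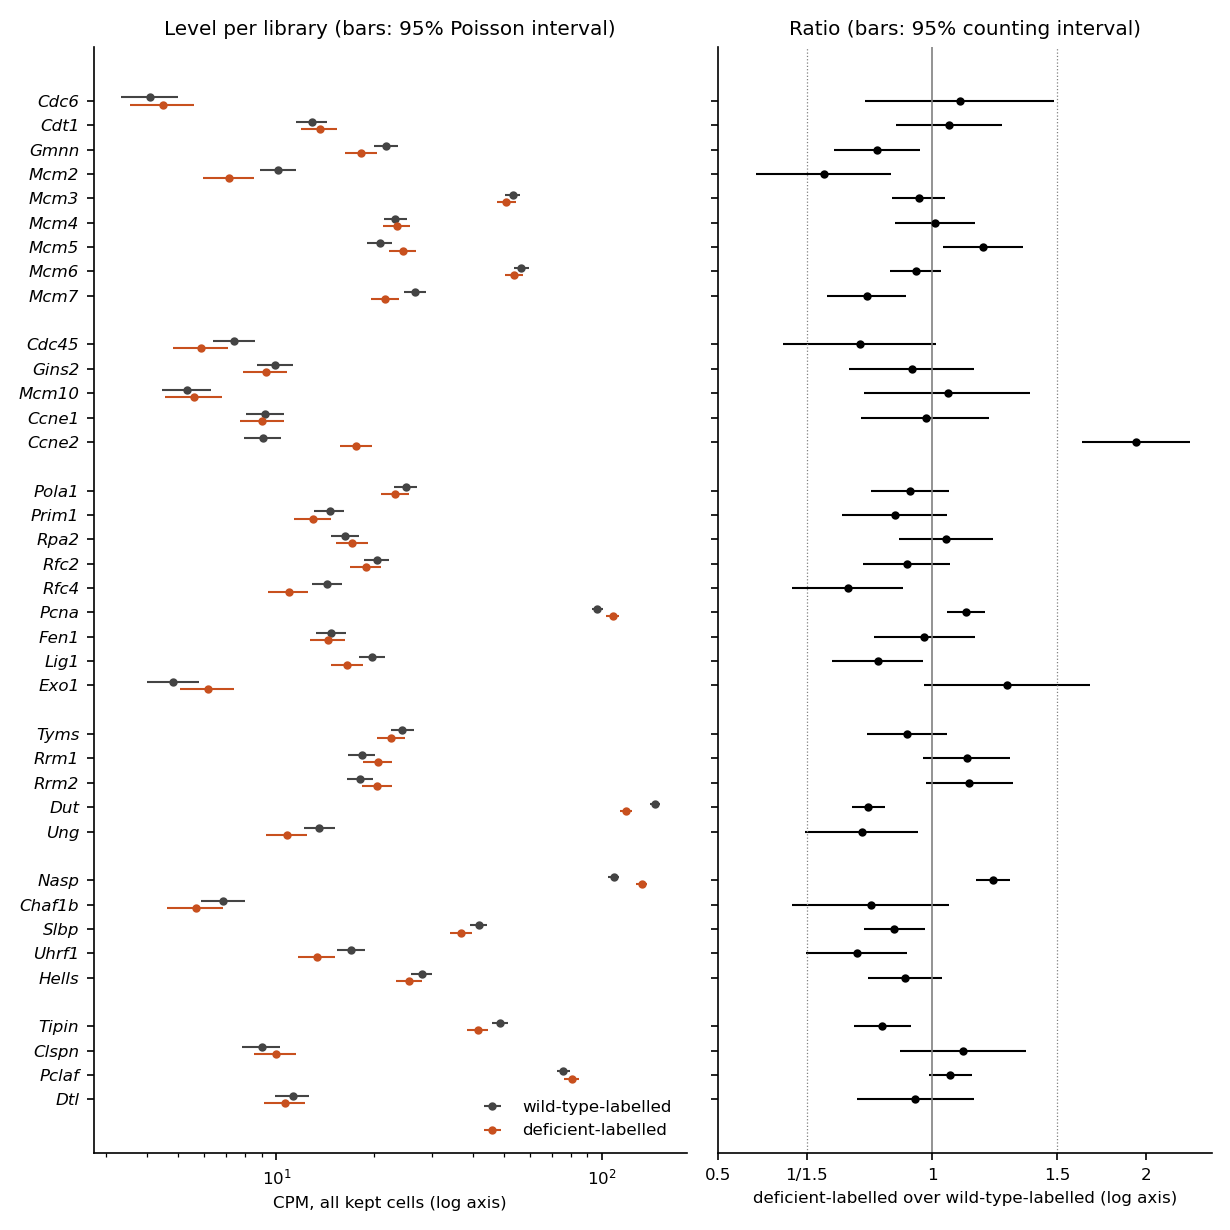
Level of each of the 37 genes in both libraries, by label (left, CPM over all kept cells on a log axis, bars are 95% Poisson intervals) and the ratio of deficient-labelled to wild-type-labelled (right, log axis, bars are 95% counting intervals), ordered by role. Dut, Nasp and Pcna were the most abundant, Ccne2 had the highest ratio at 1.93, and Mcm2 the lowest at 0.71.

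Within the licensing genes, the Mcm ring spanned a wide range of levels although its subunits act in equal numbers. UMIs of this assay count molecules from their 3′ end, and no correction for length was made. The sources used here do not say whether introns were counted, and capture can differ between genes. Mcm6 stood at 56.5 CPM under the wild-type label and 53.6 CPM under the deficient label, and Mcm3 at 53.1 and 50.8 CPM. Mcm7 was at 26.6 and 21.6 CPM, Mcm4 at 23.2 and 23.4 CPM, and Mcm5 at 20.8 and 24.5 CPM. Mcm2 was the least abundant of the ring, at 10.1 and 7.15 CPM, a ratio of 0.71 (0.57 to 0.88). The subunits differed in direction: the counting interval lay below 1 for Mcm2 and Mcm7 (0.81, 0.71 to 0.92), above 1 for Mcm5 (1.18, 1.03 to 1.34), and held 1 for Mcm3, Mcm4 and Mcm6. The loader Cdt1 was at 12.8 and 13.6 CPM and the loader Cdc6 at 4.09 and 4.47 CPM, whereas Gmnn, which restrains Cdt1, was at 21.8 and 18.2 CPM (0.84, 0.73 to 0.96). As a group the 9 licensing genes summed to 229 and 217 CPM, a ratio of 0.949 that became 1.01 without the 7 cytokine and chemokine genes.

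Among the genes of helicase activation and cyclin E, Ccne2 stood apart from the rest. This gene encodes cyclin E2, a partner of the kinase that starts S phase, and lies on chromosome 4 (11191351 to 11204779, mm10). It gave 222 UMIs (9.08 CPM) under the wild-type label and 314 UMIs (17.5 CPM) under the deficient label, a ratio of 1.93 (1.62 to 2.31). When cells were weighted equally the ratio was 1.61, with Ccne2 detected in 16.3% and 21.0% of cells. The gene overlaps Ints8 on the other strand, which was at 22.9 and 30.6 CPM (1.34), and the sources used here do not say whether counting used strand. Its paralogue Ccne1 was at 9.24 and 9.05 CPM. The Ccne1 ratio of 0.979 lay on the other side of 1 with the smaller totals and was 0.748 with equal weight per cell. Cdc45, Gins2 and Mcm10, which make up or recruit the active helicase, were all at or under 9.90 CPM in both libraries, and their intervals held 1.

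The polymerase, clamp and Okazaki genes together stood at 226 CPM under the wild-type label and 228 CPM under the deficient label (ratio 1.01, 0.966 to 1.05). Pcna, the sliding clamp, gave a large part of this, at 96.7 and 108 CPM (1.12, 1.05 to 1.19), and has named pseudogenes in the annotation that could share its reads. Lower levels in the deficient-labelled library were measured for Rfc4, a subunit of the clamp loader, at 14.3 and 10.9 CPM (0.76, 0.64 to 0.91), and for Lig1, which seals Okazaki fragments, at 19.7 and 16.5 CPM (0.84, 0.72 to 0.97). Pola1 and Prim1, which lay down primers, Rpa2, which coats single strands, the clamp loader subunit Rfc2, and the nucleases Fen1 and Exo1 had intervals that held 1. Exo1 was the least abundant of this group, at 4.83 and 6.15 CPM, a ratio of 1.27 that was 0.986 with equal weight per cell.

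The nucleotide-supply genes gave the lowest ratio of the 6 role groups, at 220 CPM under the wild-type label and 192 CPM under the deficient label (0.876, 0.839 to 0.914, and 0.930 without the 7 cytokine and chemokine genes). Dut, the enzyme that removes dUTP so that uracil is not built into DNA, made most of that difference. Its level was 145 CPM (3557 UMIs) against 118 CPM (2118 UMIs), a ratio of 0.81 (0.77 to 0.86), and 0.869 with equal weight per cell. Ung, which cuts uracil out of DNA, was at 13.5 and 10.8 CPM (0.80, 0.66 to 0.95). The subunits of ribonucleotide reductase, Rrm1 (18.3 and 20.4 CPM) and Rrm2 (18.1 and 20.4 CPM), and thymidylate synthase, Tyms (24.4 and 22.5 CPM), had intervals that held 1.

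Chromatin-copying genes were led by Nasp, a chaperone that stores and delivers histones, which lies on chromosome 4 (116601052 to 116627941, mm10). It stood at 109 CPM under the wild-type label and 132 CPM under the deficient label, a ratio of 1.22 (1.15 to 1.29) that was the same, 1.22, with equal weight per cell. At a fixed depth of 5000 UMIs it was detected in 34.5% (31.5 to 37.5) and 43.0% (39.3 to 46.7) of cells. The annotation lists a Nasp pseudogene. The other 4 genes of this group were lower in the deficient-labelled library, among them Uhrf1, which keeps methylation on copied DNA, at 17.0 and 13.3 CPM (0.78, 0.67 to 0.92), and Slbp, which binds histone transcripts, at 41.8 and 36.9 CPM (0.88, 0.80 to 0.98). Hells was at 27.9 and 25.6 CPM and Chaf1b at 6.87 and 5.64 CPM, both with intervals that held 1. Of the fork protection genes and clamp partners, Pclaf, which binds PCNA, was at 75.9 and 80.6 CPM, and Tipin, of the fork protection complex, at 48.7 and 41.5 CPM (0.85, 0.78 to 0.93). Clspn, which relays checkpoint signals, was at 9.00 and 9.95 CPM, and Dtl, which directs the destruction of Cdt1, at 11.2 and 10.6 CPM. With equal weight per cell the ratios of Pclaf, Tipin, Clspn and Dtl were 0.978, 0.782, 0.921 and 0.684. In all, 4 members (Mcm5, Ccne2, Pcna and Nasp) had counting intervals above 1, 10 below 1, and 23 held 1. The matching share over all genes was not computed, so this count has no background. It also depends on the totals used. Without the 7 cytokine and chemokine genes every ratio was higher, such as 0.94 for Slbp and 1.19 for Rrm1, and the intervals were not recomputed. Besides Ccne2, 8 of the 37 overlap a gene on the other strand, and Chaf1b overlaps a gene on its own strand.

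Member UMIs were unevenly spread over the cells of both libraries. At 5000 UMIs per cell, which 1004 and 698 cells reached, the median cell held 3 UMIs of the 37 genes together in each library, with quartiles of 1 and 4. A sum of at least 10 was found in 77 wild-type-labelled cells (7.67%, 6.10 to 9.49) and 41 deficient-labelled cells (5.87%, 4.25 to 7.88). A sum of at least 20 was found in 18 cells (1.79%, 1.07 to 2.82) and 11 cells (1.58%, 0.789 to 2.80), and the highest cells reached 59 and 37. Cells at 20 or more held 13.9% and 13.1% of the member UMIs at this depth. The 100 and 70 cells with the highest sums held 39.8% and 36.5%, so most member UMIs lay in the other cells. No member UMI at all was seen in 9.46% and 9.89% of cells at this depth. Before thinning, the median cell showed 7 of the 37 genes in both libraries, and the richest cells showed all 37. In these unthinned counts, where large cells weigh more, 64 cells (6.29%) of the wild-type-labelled library held 50% of all member UMIs. In the deficient-labelled library 37 cells (5.22%) did. The highest single cell gave 615 member UMIs of its 55242 UMIs in the former, and 858 of 126273 in the latter.

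**Figure D2:**
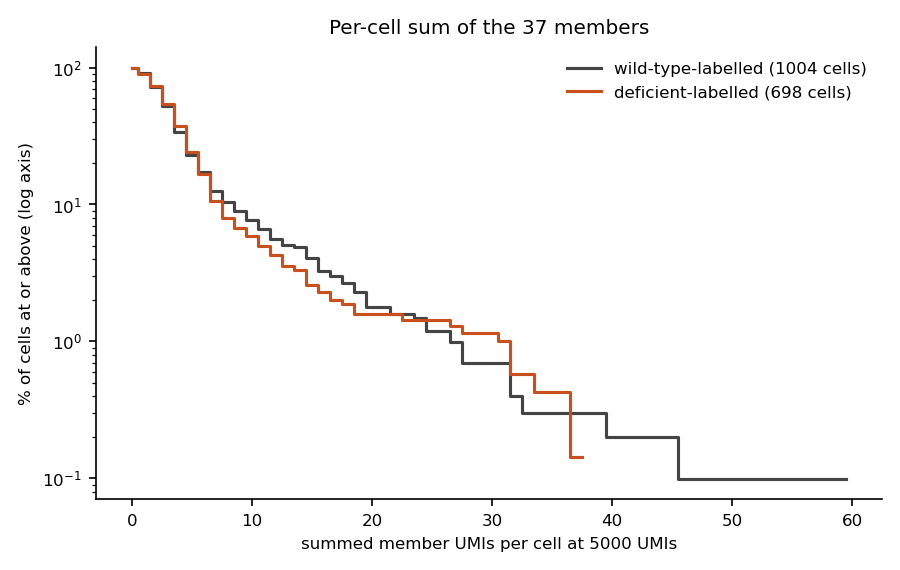
Percent of cells (log axis) at or above each summed count of the 37 genes per cell, after every cell was thinned to 5000 UMIs, in the wild-type-labelled (1004 cells) and deficient-labelled (698 cells) libraries. The curves start together, and at 20 UMIs they stand at 1.79% and 1.58% of cells.

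The genes differed widely in how far their UMIs were concentrated in few cells. For each gene, cells were ranked by their summed UMIs of the other 36 genes at 5000 UMIs. The share of the gene's UMIs in the top 10% of cells (100 and 70 cells) was then read from the counts before thinning, where large cells weigh more. These shares are therefore not comparable with the 39.8% and 36.5% given above, which were read at 5000 UMIs. Cell size was read from a single ranking by the sum of all 37 genes, whose top cells can differ from those of a given gene. In that ranking the top 10% of cells were larger than the rest, with median totals of 38956 and 39876 UMIs against 20380.5 and 21092.5. They held 18.1% and 17.9% of all UMIs. The median share over the 37 genes was 59.6% under the wild-type label and 61.0% under the deficient label. At the upper end, 5 genes had over 80% of their UMIs in the top cells in both libraries: Cdc6, Cdc45, Lig1, Rrm2 and Clspn. These shares rest on few cells. In the deficient-labelled library 50% of the UMIs lay in 5 cells for Cdc6 (80 UMIs), 6 for Clspn (178 UMIs) and 9 each for Cdc45, Lig1 and Rrm2. In the wild-type-labelled library it took 12 to 18 cells. Rrm2, the reductase subunit made in S phase, had 86.9% and 89.9%, and its level was 87.0 and 102 CPM in the top cells against 2.90 and 2.52 CPM in the rest. Pclaf had 79.2% and 88.3%, with 340 and 397 CPM in the top cells and 19.3 and 11.5 CPM in the rest.

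At the lower end, 8 genes had under 50% in both: Cdt1, Mcm6, Ccne2, Rpa2, Pcna, Ung, Nasp and Slbp. Nasp had 33.0% and 27.0% of its UMIs in the top cells, at 199 and 205 CPM there and 88.6 and 117 CPM in the rest. Pcna had 39.8% and 36.6%, at 210 and 211 CPM in the top cells and 71.4 and 84.1 CPM elsewhere. Nasp and Pcna were carried by most cells, detected in 79.2% and 74.0% of wild-type-labelled and 85.2% and 79.7% of deficient-labelled cells before thinning. They are 2 of the 4 genes whose intervals lay above 1 between libraries. The other 2, Mcm5 and Ccne2, were detected in 21.1% and 16.3% of wild-type-labelled and 23.7% and 21.0% of deficient-labelled cells. Dut, at 49.7% and 50.7%, stood between the extremes. By this measure the Mcm ring was split as well, with 41.8% and 42.0% for Mcm6 against 62.8% and 58.9% for Mcm5.

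**Figure D3:**
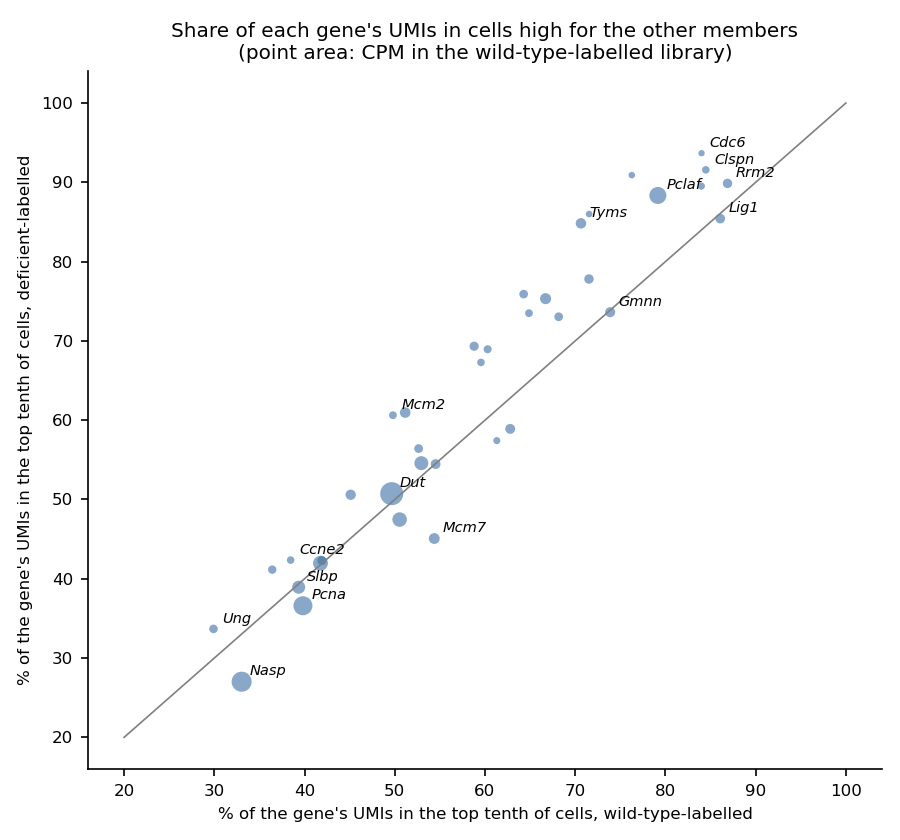
Share of each gene's UMIs found in the top 10% of cells by the summed UMIs of the other members, wild-type-labelled (x axis, percent) against deficient-labelled (y axis, percent), with 1 point per gene, area by CPM in the wild-type-labelled library and a line of equal values. Nasp sits at the lower left (33.0% and 27.0%) and Cdc6 and Rrm2 at the upper right (84.0% and 93.7%, 86.9% and 89.9%). The Cdc6 point rests on 100 and 80 UMIs.

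The genes outside the 37 that followed the per-cell sum most closely were ranked next. Over 4993 candidate genes of at least 20 CPM in both libraries, ranked by the mean of the per-library Spearman correlations over 1004 and 698 thinned cells, the first 10 were Stmn1, Hist1h1b, Hist1h2ap, Hmgb2, Mki67, Smc2, Hist1h2ae, Top2a, Hist1h1e and Hist1h3c, of which 3 (Hmgb2, Mki67 and Top2a) belong to the G2/M list. The correlation for Stmn1, which encodes a microtubule regulator, was 0.347 and 0.330, and the mean for the last of the 10 was 0.250. The points of such a correlation share library and depth, and counts are sparse at 5000 UMIs. The sum over the 53 genes of the G2/M list correlated with the member sum at 0.289 and 0.274, and the total UMIs of a cell before thinning at 0.268 and 0.108.

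Cells with a high G2/M sum held far more member transcripts. In cells with under 5 G2/M UMIs at 5000 (561 and 439 cells), the 37 genes stood at 576 CPM under the wild-type label and 572 CPM under the deficient label. In cells with 5 to 19 such UMIs (366 and 226 cells) they stood at 857 and 794 CPM. In cells with 20 or more (77 and 33 cells) they stood at 2922 and 3935 CPM, with means of 2754 and 3663 CPM when cells were weighted equally. These ranges were set after the data were seen and are not cell types, and median totals in the highest range were 47589 and 63771 UMIs, so depth moved with them and its part was not tested. From the lowest to the highest range the median gene was 5.54-fold higher in the wild-type-labelled library and 10.1-fold higher in the deficient-labelled library. At least 10-fold higher were 13 and 19 of the 37, counted without a floor, against 2.65% and 3.15% of genes at 20 CPM. Pclaf went from 6.90 to 369 CPM and from 7.48 to 541 CPM. Nasp went only from 89.6 to 170 CPM and from 116 to 216 CPM. Ung was at 14.0 and 11.8 CPM in the wild-type-labelled library, the only instance among both libraries' genes in which the highest range was lower.

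In the highest G2/M range the ratio of deficient-labelled to wild-type-labelled was 1.35 (1.31 to 1.38). It was 0.994 in the lowest range and 0.927 in the middle one. In the highest range 35 of the 37 genes were higher, 2 lower and 14 at least 1.5-fold higher. Of all genes at 20 CPM there, 58.6% were higher and 11.8% at least 1.5-fold higher. The member counts have no such floor. Of the 35 members that reached 20 CPM, 13 were at least 1.5-fold apart. Ccne2 was at 14.7 and 49.9 CPM in that range and Exo1 at 20.6 and 43.4 CPM, while Mcm7 (68.4 and 67.6 CPM) and Slbp (74.3 and 74.1 CPM) were level. The deficient-labelled value rests on 33 cells, and 1 of them gave 10.2% of its member UMIs. This range held 7.67% of cells with the wild-type label and 4.73% with the deficient label.

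**Figure D4:**
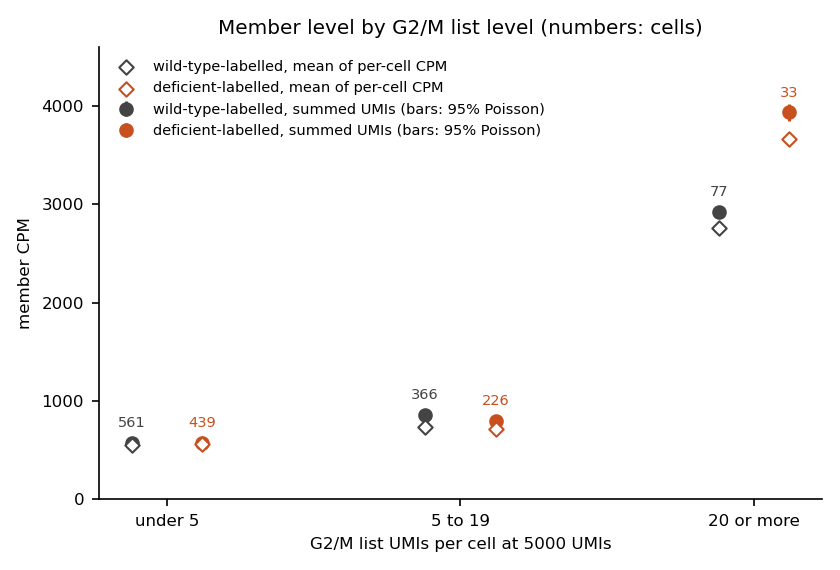
Member CPM (y axis) in cells grouped by their G2/M list UMIs at 5000 UMIs (x axis), as summed UMIs with 95% Poisson intervals (filled) and as the mean of per-cell CPM (open), with the number of cells above each point. The libraries nearly coincide at under 5 G2/M UMIs (576 and 572 CPM) and stand apart at 20 or more (2922 and 3935 CPM).

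Cells were then grouped by the cytokine transcripts that the restimulation brings out, calling a cell positive at 5 or more UMIs after thinning to 5000. The classes are exclusive. Cells with both Il17a and Ifng form a class of their own, so the class called Il17a and Il2 lacks Ifng. Likewise the class called Ifng and Il2 lacks Il17a. Il17f was not used to define any class positive for Il17a or Ifng, and the Il17f class may hold Il2. Only classes of at least 50 cells were compared, and the others are shown in the plot of the classes. In the wild-type-labelled library 5 classes reached that number, and cells with Il17a but neither Il2 nor Ifng had the highest level of the 5, both from summed UMIs and with equal weight per cell. The 37 genes stood at 1730 CPM in these Il17a-only cells (207 cells) and at 715 CPM in cells with Il17a and Il2 (373 cells), a ratio of 2.42 (2.34 to 2.49), or 1.96 with equal weight per cell. A sum of at least 10 was found in 17.4% of the former (12.5 to 23.3) and 4.56% of the latter. Cells with Il2 alone had the lowest level of the 5, at 528 CPM, with 0 of 75 cells at 10 or more, which allows a share of up to 4.80%. Cells with none of the 4 cytokines stood at 1371 CPM (93 cells), but at 859 CPM with equal weight per cell, and 1 cell gave 27.8% of their member UMIs. Cells with Il17f but neither Il17a nor Ifng stood at 733 CPM (162 cells). At 5000 UMIs the median member sum was 3 in Il17a-only cells (quartiles 2 and 7), 2 in cells with Il17a and Il2 (1 and 4) and 2 in cells with Il2 alone (1 and 3).

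In the deficient-labelled library 5 classes held at least 50 cells. Cells with Ifng and Il2 stood at 811 CPM (243 cells), Il17a and Il2 at 1518 CPM (92 cells), Il17f without Il17a and Ifng at 858 CPM (95 cells), Il2 alone at 842 CPM (92 cells) and none of the 4 at 1263 CPM (77 cells). The value for Il17a and Il2 was carried by 4 cells that held 50% of its member UMIs, and 1 cell gave 23.3%. With equal weight per cell it was 856 CPM, against 870 CPM for cells with none of the 4. In this class 36 of the 37 genes were higher and 32 at least 1.5-fold higher than in the wild-type-labelled library, against 68.7% and 14.8% of the genes that reached 20 CPM. The member counts have no such floor, so they and these shares are not like for like. The part of those 4 cells in the member counts was not tested. The ratio between libraries was 2.12 from summed UMIs and 1.38 with equal weight. For cells with Il2 alone it was 1.60 and 1.34, for the Il17f class 1.17 and 1.14, and for cells with none of the 4 cytokines 0.921 and 1.01.

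**Figure D5:**
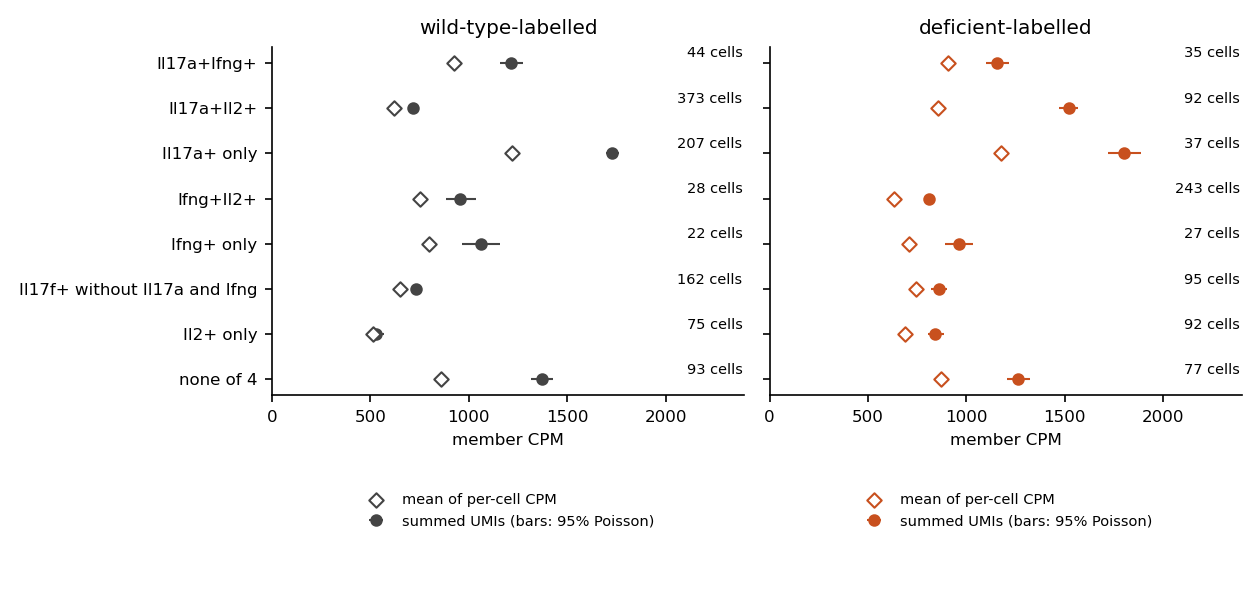
Member CPM (x axis) in 8 cytokine classes (y axis) of the wild-type-labelled (left) and deficient-labelled (right) libraries, as summed UMIs with 95% Poisson intervals (filled) and as the mean of per-cell CPM (open), with cell numbers at the right. Among classes of at least 50 cells, Il17a-only cells are highest in the left panel (1730 CPM), and the open symbol falls well below the filled one for deficient-labelled cells with Il17a and Il2 (856 against 1518 CPM) and for wild-type-labelled cells with none of the 4 (859 against 1371 CPM).

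Taking 1 cytokine at a time, a contrast added after the data were seen, showed lower replication transcripts in Il2-positive cells of both libraries. In the wild-type-labelled library the 37 genes stood at 733 CPM in 588 Il2-positive cells and 1479 CPM in 416 Il2-negative cells, a ratio of 0.495 (0.483 to 0.508), or 0.626 with equal weight per cell. In the deficient-labelled library they stood at 948 CPM in 526 Il2-positive and 1365 CPM in 172 Il2-negative cells, a ratio of 0.695 (0.673 to 0.717), or 0.748 with equal weight. All 37 genes were lower in the Il2-positive cells of the wild-type-labelled library, 29 of them at least 1.5-fold, against 59.4% and 11.3% of genes that reached 20 CPM. In the deficient-labelled library 36 were lower, 17 of them at least 1.5-fold, against 64.8% and 14.4%. The same 16 genes were at least 1.5-fold lower in both, against 7.71% of genes. These counts take all 37 genes. Of those that reached 20 CPM on 1 side, 19 of 23 and 10 of 21 were at least 1.5-fold lower.

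In the wild-type-labelled library the Il2 gap ranged from 6.37-fold for Rrm2 to 1.14-fold for Ung. Rrm2 was at 5.36 CPM in Il2-positive and 34.2 CPM in Il2-negative wild-type-labelled cells, and at 17.2 and 31.7 CPM in the deficient-labelled library. Tyms was at 10.6 and 41.8 CPM, and at 17.7 and 39.0 CPM. Pclaf was at 38.1 and 124 CPM, and at 62.3 and 144 CPM, and Dut at 88.9 and 217 CPM, and at 102 and 174 CPM. In contrast Nasp was at 98.5 and 121 CPM, and at 133 and 131 CPM, the only gene of the 37 that was not lower in Il2-positive deficient-labelled cells. Ccne2 (17.4 and 18.0 CPM) and Rpa2 (17.0 and 17.2 CPM) were nearly level in that library.

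The G2/M list moved the same way, at 1391 CPM in Il2-positive and 2823 CPM in Il2-negative wild-type-labelled cells, and at 1364 and 2782 CPM in the deficient-labelled library. Within cells of under 20 G2/M UMIs the member ratio was 0.745 and 0.900, and in those of 20 or more it was 0.602 (28 against 49 cells) and 1.10 (18 against 15 cells). Whether Il2 itself bears on the member level was not tested. Across cells the member sum and Il2 correlated at -0.165 and -0.142.

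Il17a-positive cells had higher member levels in both libraries, at 1150 against 872 CPM (624 and 380 cells; ratio 1.32, or 1.22 with equal weight) and at 1476 against 882 CPM (164 and 534 cells; 1.67, or 1.34). Of the 37 genes, 34 were higher in Il17a-positive cells of both libraries, and 10 of them at least 1.5-fold, against 32.1% and 1.73% of genes at 20 CPM. The member counts have no such floor. Of members that reached 20 CPM on 1 side, 6 of 19 in the wild-type-labelled and 15 of 21 in the deficient-labelled library were at least 1.5-fold higher. With equal weight per cell 29 of the 37 were higher in both libraries. With positive from 1 UMI the member ratios were 1.37 and 1.17, and from 10 UMIs 1.14 and 1.57. In cells of under 20 G2/M UMIs they were 1.005 and 1.15. In those of 20 or more they were 0.974 (62 against 15 cells) and 0.862 (18 against 15 cells). Of Il17a-positive wild-type-labelled cells 9.94% lay above that limit, against 3.95% of Il17a-negative ones (10.98% against 2.81% in the deficient-labelled library). Across all cells the correlation of Il17a with the member sum was near 0 (-0.001 and 0.015). For Ifng the ratio was 1.06 in the wild-type-labelled library (94 positive cells) and 0.726 in the deficient-labelled library (305 positive cells), where all 37 genes were lower in positive cells, as were 81.8% of genes at 20 CPM. With positive from 1 UMI both ratios lay below 1 (0.759 and 0.794), and from 10 UMIs they were 1.16 and 0.685. For Il17f it was 0.855 (740 positive cells) and 1.54 (272 positive cells), where all 37 were higher, as were 65.7% of genes. With positive from 1 UMI both Il17f ratios lay above 1 (1.28 and 1.32), and from 10 UMIs they were 0.856 and 1.47.

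Other genes of the pathway were taken from lists that do not hold the 37. Of 44 further replication genes 22 reached 20 CPM, with a median log2 ratio of -0.05. Rnaseh2c, a subunit of the enzyme that cuts RNA out of DNA, was the only one at least 1.5-fold lower, at 63.6 CPM under the wild-type label and 38.8 CPM under the deficient label. The highest was Wdhd1, which ties the polymerase to the helicase, at 18.3 and 27.5 CPM, a ratio of 1.504 that passed the size rule without the pseudocount but not with it. Of 24 nucleotide-synthesis genes 19 reached 20 CPM, with a median of 0.02; Mthfd2, of mitochondrial folate metabolism, was at 244 and 162 CPM, while Samhd1, which breaks down nucleotides, was at 51.8 and 84.6 CPM and Adss, of purine synthesis, at 111 and 189 CPM. Of 30 regulators of the G1/S transition 12 reached 20 CPM and 0 differed 1.5-fold, with Ccnd3 at 45.7 and 30.6 CPM and Ccnd2 at 932 and 1131 CPM. None of 7 measured checkpoint genes differed 1.5-fold. Of 53 G2/M genes 22 reached 20 CPM, with a median of -0.40 and 5 at least 1.5-fold lower, among them Ube2c at 103 and 50.3 CPM. The median of the 18 members at that level was -0.09, and the difference between the lists has no replicate check.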

How the data were processed

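The authors deposited raw UMI counts by gene and barcode, with a matrix for each library that Cell Ranger 7.0.0 wrote, per the file headers. The submitters' processing notes name Cell Ranger 7.0 and mm10, and no source used here states the annotation or the strand setting. The 12 multiplexing tags did not enter the totals. Barcodes of 500 or more genes and no more than 10% mitochondrial UMIs entered, giving 24452538 and 17898193 UMIs in all. No doublet caller was run; an alternative left out cells above the 95th percentile of UMIs.

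The members and lists were chosen with earlier results of these data known. UMIs were summed per library and divided by its total to give CPM. Log2 ratios used a pseudocount of 1 CPM, which understates low genes, and printed folds are ratios of CPM without it. All 37 members are described. Of the other lists the highest and lowest genes at 20 CPM or more in 1 library were computed, up to 2 each way. Cells were thinned without replacement to 5000 UMIs (14 and 11 cells lay below) for cytokine classes, per-cell sums and G2/M ranges. Sums carry exact Poisson, shares exact binomial (Clopper-Pearson) and ratios conditional binomial 95% intervals. With 1 library per group a size rule of 1.5-fold, applied to log2 ratios with the pseudocount, stood in for a test.

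Gene coordinates came from GENCODE M21 (mm10), which held all 37 gene identifiers, and promoters from RefSeq (GRCm38.p6). The scripts were tested on simulated data. Values were computed with pandas 2.3.3, NumPy 2.4.6 and SciPy 1.17.1 in Python 3.11.15; edgeR 4.0.16 and DESeq2 1.42.0 in R 4.3.3 gave alternative scaling only.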

Additional observations from a re-analysis of the deposited data

Results flagged for a closer look

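For 3 contrasts the summed level of the 37 genes lay on opposite sides of 1 in the 2 libraries, each with a counting interval that left out 1. With 1 library each, these differences between libraries were not tested. The ratio of Ifng-positive to Ifng-negative cells was 1.06 under the wild-type label and 0.726 under the deficient label, or 1.08 and 0.816 with equal weight per cell. The Ifng-positive wild-type-labelled side holds 94 cells, of which 8 gave 50% of its member UMIs. When a cell was called positive from 1 UMI the wild-type-labelled ratio turned to 0.759, beside 0.794 in the deficient-labelled library. The opposite sides were thus not kept at that threshold. They were kept with positive from 10 UMIs (1.16 and 0.685), under 20 G2/M UMIs (1.26 and 0.902) and without the 7 cytokine and chemokine genes (1.10 and 0.790). The ratio of Il17f-positive to Il17f-negative cells was 0.855 and 1.54, or 0.968 and 1.32 with equal weight. The highest Il17f-negative wild-type-labelled cell gave 9.57% of the member UMIs of its side. From 1 UMI the Il17f ratios were 1.28 and 1.32, again on the same side. They stayed on opposite sides from 10 UMIs (0.856 and 1.47), under 20 G2/M UMIs (0.867 and 1.26) and without the 7 genes (0.873 and 1.49).

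Cells with Il17a and Il2 over cells with none of the 4 cytokines gave 0.522 under the wild-type label and 1.202 under the deficient label. With equal weight per cell these were 0.725 and 0.985, both under 1, and 4 cells held 50% of the member UMIs in each of the deficient-labelled classes and in the wild-type-labelled class with none of the 4.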

How the results depend on the processing

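No paired analysis was possible because each group is 1 library, and for the same reason no library could be left out. The ratio of the summed members (0.979) stayed within its counting interval under 7 alternatives, among them edgeR TMM (0.977), median-ratio size factors (0.986) and equal weight per cell (0.964). It was 0.901 without cells above the 95th percentile of UMIs, 0.921 in cells with none of the 4 cytokines and 0.937 in cells of under 20 G2/M UMIs. It turned to 1.04 with totals that leave out the 7 cytokine and chemokine genes, to 1.14 without Ifng-positive cells and to 1.35 in cells of at least 20 G2/M UMIs. The median member log2 ratio (-0.08) turned to 0.0074, 0.15 and 0.53 under the same 3, where the median of all genes was 0.12 and 0.11 under the first 2, and was -0.25 without cells above the 95th percentile of UMIs and -0.28 in cells of under 20 G2/M UMIs. The number of members at least 1.5-fold apart (0 of 18) became 4 of 23 in cells with none of the 4 cytokines, 1 of 20 without Ifng-positive cells, 1 of 37 with no floor and 13 of 35 in cells of at least 20 G2/M UMIs, since the number that reached 20 CPM changed with the setting. For cells with Il17a and Il2 over cells with none of the 4, the wild-type-labelled ratio (0.522) was 0.553 at 2000 UMIs, 0.725 with equal weight per cell and 0.554 without the 7 genes, and the deficient-labelled ratio (1.202) was 1.28 at 2000 UMIs and 0.985 with equal weight. Where positive meant 1 UMI, and in the deficient-labelled library at 10000 UMIs, a class fell under 50 cells and gave no value. Il2-positive over Il2-negative cells (0.495 and 0.695) gave 0.626 and 0.748 with equal weight, 0.745 and 0.900 under 20 G2/M UMIs, 0.514 and 0.743 without the 7 genes, 0.511 and 0.612 with positive from 1 UMI, and 0.511 and 0.640 from 10. From 1 UMI the wild-type-labelled Ifng ratio was 0.759 and the Il17f ratio 1.28, and from 10 UMIs they were 1.16 and 0.856. The share of cells at 20 or more member UMIs was 0.944% and 0.302% without cells above the 95th percentile of UMIs. The G2/M and 1-cytokine settings were chosen after seeing the data, and the cause of each change was not tested.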

Other observations

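Barcodes left out by the filters (131 and 45) held the 37 genes at 997 CPM (907 to 1094) in the wild-type-labelled and 1241 CPM (1070 to 1431) in the deficient-labelled library, with median totals of 2590 and 2488 UMIs.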
